A study of Mus musculus with 24 samples.

Results

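Long-term haematopoietic stem cells (LT-HSCs) carrying Jak2V617F were compared with wild-type LT-HSCs of the same vehicle-treated mice. The comparison used 12 of the 24 libraries of the study, 6 of each genotype, chosen by labelled genotype and treatment and paired by the mouse number in the library name. It was read on the 15215 autosomal genes that could be tested. Wild-type cells came from a C57Bl/6N Ptprca donor, which carries the CD45.1 form of the leukocyte marker. Mutant cells came from a C57Bl/6N Jak2V617F/+ Tg(E2A-cre) donor with the CD45.2 form, whose Cre, driven by the E2A promoter, is there to recombine the floxed mutant allele. That promoter acts in the early embryo, so in the donor the mutation is not limited to blood cells. Marrow of both donors was mixed at equal parts, and 2000000 cells were given to lethally irradiated (11 Gy) C57BL/6J recipients that carry both CD45 forms. All 6 recipients then had the vehicle, albumin in buffered saline, under the skin once a week, 5 doses over 4 weeks. Cells negative for lineage markers and CD48 and positive for Sca1, cKit and CD150 were sorted 48 hours after the last dose, and their polyadenylated RNA was sequenced. A further 6 recipients on the same schedule received 600 ng of pegylated interferon alpha (pegIFN) per dose, and their 12 libraries serve here only to see which differences recur. Sex-linked transcripts differed between the groups as well (values below), so donor sex may differ too. The genotype, the donor and its sex, the congenic marker and the transgene change together, so their effects cannot be told apart. The labels do not say how many donor mice were used. The p-values therefore measure how the genotype difference within a mouse varied between recipients, and not how it varies between donors.

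LT-HSCs are the rare marrow cells that can rebuild the blood system for life, and most of them are out of the cell cycle at any time. Jak2 is the kinase bound to the erythropoietin receptor and several other cytokine receptors, and it phosphorylates STAT5 and further STAT proteins, which then enter the nucleus and switch on genes for growth, survival and feedback inhibition. Jak2V617F leaves the kinase active with little or no cytokine, and in stem cells it starts the myeloproliferative neoplasms polycythaemia vera, essential thrombocythaemia and primary myelofibrosis.

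Levels are CPM, read counts scaled to a common library size and corrected for library composition (TMM), and where a group is given by 3 values these are its lowest, median and highest library. Differences are log2 fold changes, Jak2V617F minus wild-type, ± the standard error of an edgeR fit with a term for each mouse. A gene was called where its Benjamini-Hochberg adjusted p was under 0.05 over the 15879 genes tested. By this rule 31.4% of the autosomal genes were called, 2689 (17.7%) higher and 2088 (13.7%) lower in Jak2V617F cells. With upper-quartile scaling the split turned to 2218 higher and 2630 lower, and without a term for the mouse 1954 genes (12.8%) were called, 1312 higher (8.62%) and 642 lower (4.22%). Most differences were small. The median log2 fold change was 0.26 among genes called higher and -0.29 among those called lower, and 99 genes in each direction passed a size of 1. The plot of all autosomal genes shows this narrow band, with few genes far from it.

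**Figure D1:**
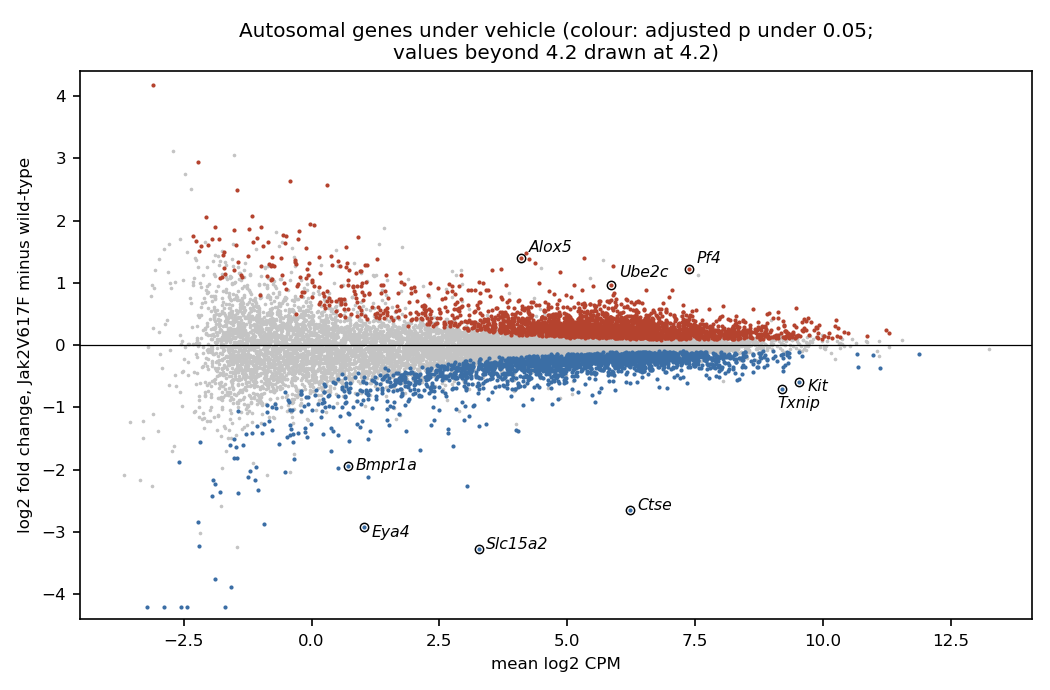
Each point is 1 of 15215 autosomal genes, with its mean log2 CPM on the horizontal axis and its log2 fold change (Jak2V617F minus wild-type, vehicle) on the vertical axis. Called genes are coloured, 2689 higher and 2088 lower, and most lie close to 0, while Slc15a2, Eya4 and Ctse lie below -2. Values beyond the axis are drawn at its limit.

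Total counts ran from 27093327 to 35741647 in wild-type and from 24620821 to 31627232 in Jak2V617F libraries. No difference in these totals, in the share of mitochondrial reads or in that of the 10 largest genes was detected by an exact two-sided sign-flip test of the 6 pairs (p = 0.5, 0.75 and 0.9375, where the smallest p possible is 0.03125). The scaling factor of the library (TMM) was lower in the mutant library of all 6 mice, with a mean of 1.02 against 1.04 (p = 0.03125 by the same exact test, adjusted p = 0.125 over the 4 measures). Xist was at 3.00 to 54.9 CPM in Jak2V617F libraries and at 599.8 to 3310 CPM in wild-type libraries. Wild-type replicate 4 stood apart from its group on sex-linked genes, with 599.8 CPM of Xist against 1937 to 3310 in the other 5 wild-type libraries. Its Y-linked genes reached 112% of the Jak2V617F mean against 9.09 to 34.1% in those 5. Without this mouse 3796 autosomal genes (25%) were called, 2258 higher (14.8%) and 1538 lower (10.1%), and counts without it stand beside the main groups of genes below and wherever they moved a count of 3 or more genes by over 1.5 times. On the 3749 genes called between the genotypes in pegIFN mice, which share no library with these, the difference in this mouse had the same sign for 81.6%, and in the other 5 mice for 76.3 to 86.9%.

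The libraries carried RNA of all 8 stem cell markers. Their summed level was 1573, 1958 and 2277 CPM in wild-type and 1207, 1338 and 1658 CPM in Jak2V617F libraries, lower in the mutant library of each mouse. Markers of other cells were present as well, as the plot of marker sums shows. The 6 granulocyte and monocyte markers summed to 276, 399 and 918 CPM in wild-type and 328, 851 and 1879 CPM in Jak2V617F libraries, and the 5 megakaryocyte markers to 559, 889 and 1507 against 828, 1364 and 1804 CPM. B cell markers stayed below 10 CPM in every library. No marker of any list was at 0 in all libraries of a group.

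**Figure D2:**
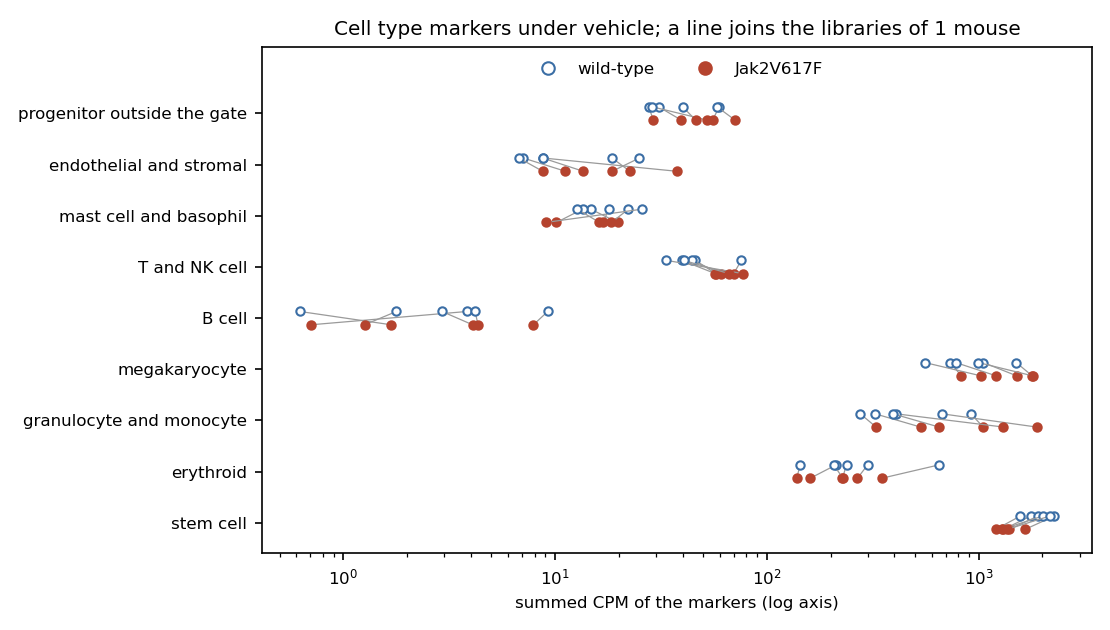
Summed CPM of marker genes (log axis) for 9 cell types in the 12 vehicle libraries, with open circles for wild-type, filled circles for Jak2V617F and a line for each mouse. Stem cell markers sum to 1573 to 2277 CPM in wild-type and 1207 to 1658 CPM in Jak2V617F, while granulocyte and monocyte markers span 276 to 1879 CPM.

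Genes of the G2 phase and mitosis were higher throughout. All 28 listed genes were called higher in Jak2V617F cells, with a median log2 fold change of 0.58 beside a median of -0.0035 over all autosomal genes. Without replicate 4 there were again 28, and without the mouse term 27. Ube2c, which encodes the ubiquitin-conjugating enzyme of the anaphase-promoting complex, stood at 29.0, 39.7 and 55.5 CPM in wild-type and 66.1, 86.1 and 93.2 CPM in Jak2V617F libraries. The 2 groups did not overlap for this gene, as was the case for 2.94% of all autosomal genes, and its log2 fold change was 0.97 ± 0.08 (adjusted p = 2.55e-06). Cdk1, the kinase that drives entry into mitosis, was at 43.8, 67.5 and 84.9 against 78.0, 109 and 121 CPM, higher in the mutant library of all 6 mice by 0.71 ± 0.06 (adjusted p = 6.17e-06). Its partners Ccnb2 (cyclin B2) and Ccna2 (cyclin A2) rose by 0.72 ± 0.07 and 0.65 ± 0.07 (adjusted p = 1.38e-05 and 1.44e-05). For Ccnb2 the levels were 35.5, 53.1 and 76.8 CPM in wild-type and 69.9, 101 and 106 CPM in Jak2V617F, so the groups overlapped only at their ends. Mki67, a marker of all cycling phases, rose least among the 28, by 0.41 ± 0.07. In bulk RNA, more cells in mitosis and more of these transcripts per cell cannot be told apart.

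Genes of mitosis are known to share promoter elements, the CCAAT box bound by NF-Y and the cell cycle homology region with the core TTTGAA. Of these 4 genes, those found in the RefSeq promoter table (GRCm38.p6) are shown, because every gene of this list was called. Each stretch runs 5′ to 3′ in the direction of the gene, from 180 bases before the RefSeq start to the base before the first start annotated there by GENCODE. Capitals mark CCAAT and TTTGAA or their reverse complements ATTGG and TTCAAA.
Ube2c, chr2:164769749-164769897, plus strand: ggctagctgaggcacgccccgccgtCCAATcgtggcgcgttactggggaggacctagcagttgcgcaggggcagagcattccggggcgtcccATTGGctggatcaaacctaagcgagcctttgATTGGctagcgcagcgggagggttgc
Cdk1, chr10:69352939-69353092, minus strand: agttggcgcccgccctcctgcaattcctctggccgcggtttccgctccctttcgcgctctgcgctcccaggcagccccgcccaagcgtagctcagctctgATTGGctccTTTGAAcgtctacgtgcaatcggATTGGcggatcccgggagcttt
Ccnb2, chr9:70421555-70421734, minus strand: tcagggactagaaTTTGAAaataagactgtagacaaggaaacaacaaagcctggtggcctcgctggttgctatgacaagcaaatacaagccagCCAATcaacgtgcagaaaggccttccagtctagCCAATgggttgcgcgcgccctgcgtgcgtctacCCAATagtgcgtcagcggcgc

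The Ube2c and Ccnb2 stretches each hold 3 CCAAT boxes and the Cdk1 stretch 2. A TTTGAA core is printed for Cdk1 and Ccnb2, while that of Ube2c lies 29 bases before the RefSeq start, outside the stretch shown, as does a further one of Cdk1 at 15 bases. In the 250 bases before the start, CCAAT on either strand was found in 19 of the 23 list genes in the table (82.6%), against 36.1% of the 9515 autosomal genes tested here that the table holds. TTTGAA was found in 8 (34.8%) against 10.6%, and both in 8 (34.8%) against 4.19%. In the list of DNA replication genes described next, CCAAT was found in 14 of 22 (63.6%), TTTGAA in 4 (18.2%) and both in 3 (13.6%). No CCAAT match overlaps a TTTGAA match in these stretches. A match of letters is not a binding site.

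DNA replication genes moved the same way by less. Of 28 genes of the G1/S transition and replication, 27 were called higher and none lower, with a median of 0.25. Fen1, the nuclease that trims Okazaki fragments, rose by 0.42 ± 0.05 from 59.0, 93.5 and 112 to 91.1, 125 and 132 CPM (adjusted p = 3.7e-05). The replicative helicase factor Gins1, thymidylate synthase (Tyms) and the ribonucleotide reductase subunit Rrm1 rose by 0.46 ± 0.05, 0.45 ± 0.06 and 0.35 ± 0.05. Among 34 genes of DNA damage signalling and repair, 23 were higher and 2 lower (median 0.21). Fancd2 of the Fanconi anaemia pathway rose by 0.44 ± 0.07 and the histone gene H2afx by 0.57 ± 0.08. Without the mouse term 6 replication genes and 8 repair genes were called higher, and without replicate 4 the counts were 22 and 17. The size also varied between mice. The median difference of the replication list was 0.09 to 0.12 in replicates 1, 2 and 3 and 0.37 to 0.41 in replicates 4, 5 and 6, and that of the mitosis list was 0.28 to 0.57 and 0.66 to 0.92 in the same mice. The granulocyte and monocyte list showed its larger gaps in replicates 4, 5 and 6 too (0.82 to 1.52 against 0.15 to 0.63), and its part in the cell cycle difference was not tested. The S numbers that end the library names are the same in replicates 1, 2 and 3 as in replicates 4, 5 and 6. The labels do not say which libraries were prepared or sequenced together, and a part of processing in this split was not tested.

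**Figure D3:**
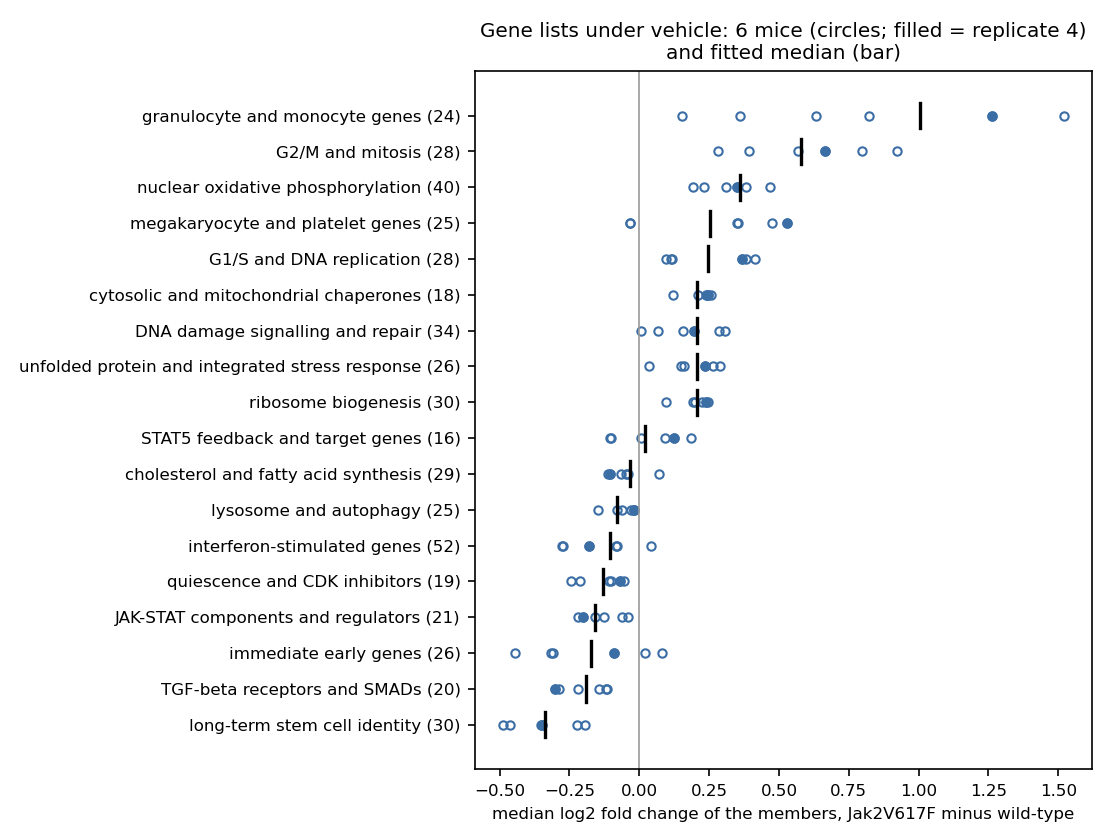
Median log2 fold change (Jak2V617F minus wild-type) of the members of 18 gene lists, with the number of genes tested in brackets, 1 circle for each of the 6 vehicle mice (filled for replicate 4) and a bar for the median of the fitted values. The mitosis circles lie between 0.28 and 0.92 and those of stem cell identity between -0.49 and -0.19, while STAT5 targets lie on both sides of 0.

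Genes for energy supply and protein production were higher as well. Of 40 nuclear genes of oxidative phosphorylation, 38 were called higher and none lower (median 0.36), with 37 without replicate 4 and 35 without the mouse term. Uqcrq, a subunit of respiratory complex III, was at 28.1, 37.9 and 45.4 CPM in wild-type and 51.6, 58.0 and 64.9 CPM in Jak2V617F libraries, without overlap, and rose by 0.65 ± 0.08 (adjusted p = 2.16e-05). Cox5a of complex IV, cytochrome c (Cycs) and Ndufv2 of complex I rose by 0.56 ± 0.06, 0.52 ± 0.06 and 0.43 ± 0.05. Ribosome biogenesis genes were higher in 26 of 30 (median 0.21), among them Nhp2 of the small nucleolar ribonucleoproteins (0.57 ± 0.06, groups without overlap) and the nucleolar factors Bop1 (0.33 ± 0.05) and Nolc1 (0.28 ± 0.04). Chaperones of the cytosol and mitochondria were higher in 13 of 18 (median 0.21), among them Hspe1 (0.52 ± 0.06), Hspd1 (0.37 ± 0.05) and Hsp90aa1 (0.31 ± 0.04). Without the mouse term the ribosome count was 15 and the chaperone count 7.

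The unfolded protein and integrated stress response list moved in both directions. It had 15 genes higher and 3 lower of 26 (median 0.21), and 8 higher without the mouse term. The endoplasmic reticulum chaperone Hsp90b1 rose by 0.43 ± 0.05, and 2 amino acid and one-carbon enzymes controlled by ATF4 rose as well, Psat1 by 0.49 ± 0.05 and Mthfd2 by 0.72 ± 0.09. Ern1, the stress sensor IRE1, fell from 105, 147 and 177 to 85.2, 105 and 131 CPM (-0.43 ± 0.06, adjusted p = 3.89e-05). Of 24 glycolysis and hypoxia genes, 7 were higher and 2 lower, with 3 higher without the mouse term. Ldha rose by 0.33 ± 0.04 and Eno1 by 0.25 ± 0.05, and Ddit4, an inhibitor of mTORC1 signalling, fell (-0.60 ± 0.09). RSEM divides reads that fit several genes, and among the genes named here the counts of Ldha, Eno1, Hspd1, Hspe1, Hsp90aa1, Hsp90b1, Cox5a, Cycs, Ccna2, Fen1, Meis1, Txnip, Rbl2, Stat5a, Stat5b, Trim30a, Ifit1, Sp100, Bad, Bak1, Gp1bb, Fcgr3, Angpt1, Ccnd3, Socs2 and Icam1 were fractional in all 12 libraries, so for these genes the share of related or overlapping genes is uncertain.

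Genes that mark LT-HSCs were lower in the mutant cells although the same gate was used for both. Of 30 genes of stem cell identity, none was called higher and 16 were called lower (median -0.34), with 15 lower without replicate 4 and 7 without the mouse term. Kit, the receptor for stem cell factor, was at 727, 923 and 1190.0 CPM in wild-type and 502, 605 and 771 CPM in Jak2V617F libraries, and fell in all 6 mice by 0.59 ± 0.06 (adjusted p = 1.21e-05). Sorting used the Kit protein as a gate, so this transcript difference lies within the cells that passed it. The adhesion receptor Gpr56 and the transcription factor Meis1 did not overlap between the groups, at 322, 352 and 373 against 282, 287 and 302 CPM for Meis1, and fell (-0.36 ± 0.04 and -0.27 ± 0.04). The transcription factors Hlf, Mecom and Gata2 fell (-0.56 ± 0.14, -0.39 ± 0.10 and -0.31 ± 0.06), and so did Pdzk1ip1, a membrane protein used as a marker of LT-HSCs (-0.46 ± 0.05). For other markers the test was not passed, with differences of -0.12 ± 0.09 for Slamf1 (the CD150 of the gate), -0.28 ± 0.17 for Procr, -0.48 ± 0.22 for Fgd5, -0.10 ± 0.09 for Ly6a (Sca1) and 0.41 ± 0.18 for Vwf. Cd48, whose protein the gate excludes, was at 4.73, 7.30 and 12.8 against 9.20, 12.7 and 14.6 CPM and was called higher by 0.70 ± 0.15 (adjusted p = 0.00383).

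Genes that hold stem cells out of cycle fell in part. Of 22 listed genes of quiescence and CDK inhibition 19 were tested (median -0.13). Of these, 8 were called lower (42.1%) and 3 higher (15.8%), beside 13.7% and 17.7% of all autosomal genes. The largest rise was that of Gfi1 (0.73). The lower count was 5 without replicate 6 and 5 without the mouse term. Txnip, the thioredoxin-interacting protein, was at 494, 782 and 1149 CPM in wild-type and 332, 483 and 566 CPM in Jak2V617F and fell by 0.70 ± 0.06 (adjusted p = 6.17e-06). The forkhead factors Foxo1 and Foxo3 fell (-0.46 ± 0.07 and -0.33 ± 0.05), and so did the pocket protein gene Rbl2 (-0.25 ± 0.05), in each case without overlap between the groups. Cdkn1c, the CDK inhibitor p57, fell by 0.65 ± 0.16 (adjusted p = 0.00589), and for Cdkn1a (p21) the difference was 0.02 ± 0.08. The TGF-beta pathway, which restrains cycling of LT-HSCs, had 12 of 20 genes lower and 1 higher (median -0.19), and 6 were lower without the mouse term. Tgfb1, the ligand, was the higher one (0.30 ± 0.06). The receptor gene Bmpr1a fell from 2.42, 2.61 and 7.56 to 0.245, 0.660 and 2.43 CPM (-1.95 ± 0.35). The signal transducer gene Smad3 (-0.30 ± 0.05) and the repressor gene Skil (-0.35 ± 0.07) fell as well. Genes of niche adhesion and homing were lower in 5 of 22 (22.7%, beside 13.7% of all autosomal genes) and higher in none. Their median was -0.08, with 8 lower under upper-quartile scaling and 3 without replicate 4, 5 or 6. The chemokine receptor Cxcr4 (-0.61 ± 0.06), Alcam (-0.53 ± 0.11) and S1pr1 (-0.47 ± 0.07) were among the 5 lower genes.

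**Figure D4:**
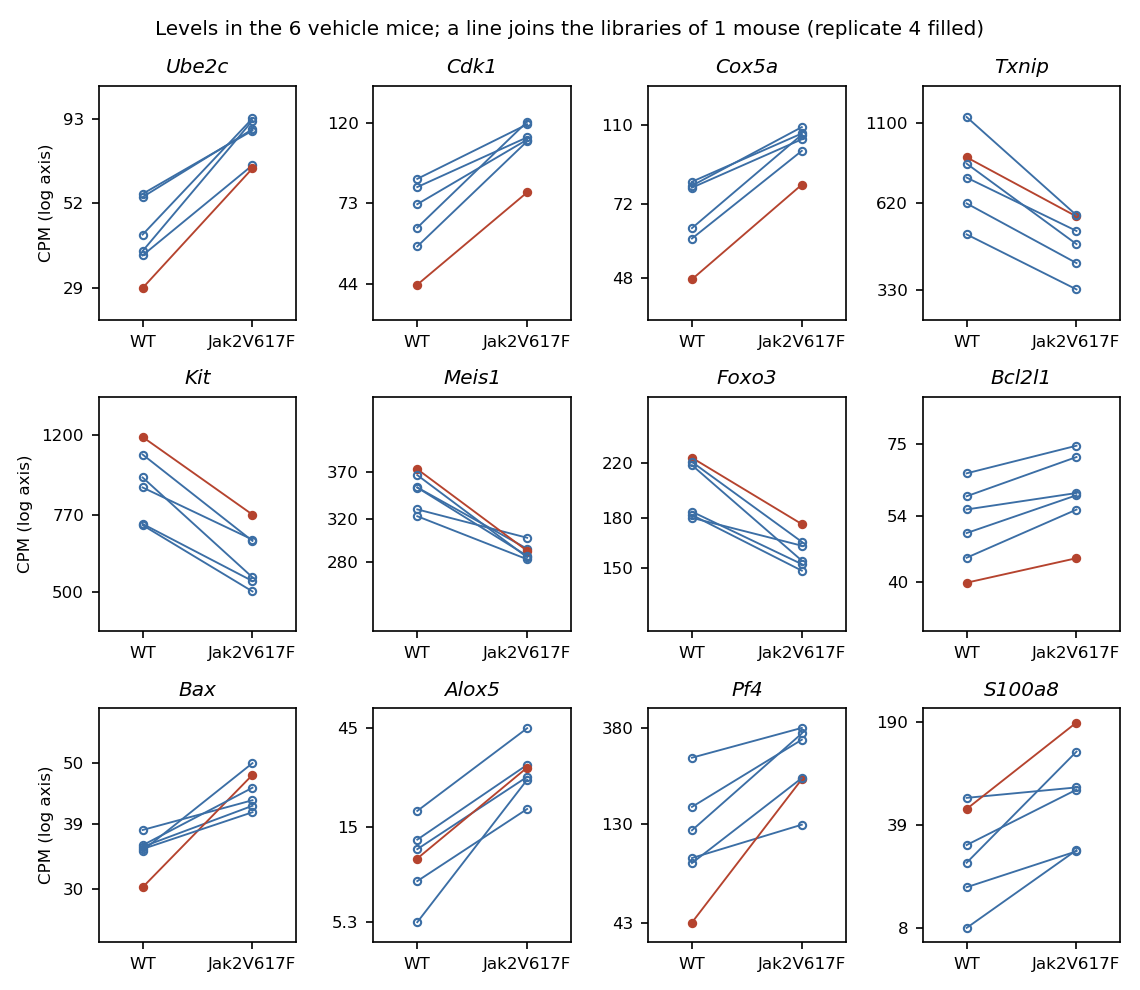
CPM (log axis, own scale for each gene) of 12 genes in the wild-type and Jak2V617F library of each of the 6 vehicle mice, joined by a line, with replicate 4 filled. The line of every mouse rises for Ube2c, Cdk1, Cox5a, Bcl2l1, Bax, Alox5, Pf4 and S100a8 and falls for Txnip, Kit, Meis1 and Foxo3, although the 2 groups overlap for 7 of the 12 genes.

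Receptor, kinase and transducer genes of the mutated pathway were lower in part. Jak2 itself was at 119, 136 and 159 CPM in wild-type and 105, 123 and 127 CPM in Jak2V617F and fell by 0.22 ± 0.05 (adjusted p = 0.00278). Counts per gene do not resolve the mutation, so this level does not check the genotype. Of 21 JAK-STAT components and regulators, 12 were lower and 2 higher (median -0.16), with 7 lower without replicate 4 or without replicate 6 and 5 lower without the mouse term. Jak1, the partner kinase of interferon and interleukin receptors, fell by 0.23 ± 0.04 with no overlap. Cbl and Cblb, ubiquitin ligases that remove active receptors, fell as well (-0.22 ± 0.05 and -0.27 ± 0.05). Stat5a and Stat5b were called lower (-0.14 ± 0.05 and -0.14 ± 0.04). Both calls were lost without replicate 4 (adjusted p = 0.0853 and 0.0646), 5 (0.118 and 0.0663) or 6 (0.106 and 0.0741), and that of Stat5a also without replicate 1 (0.0789) or 3 (0.0579). Among 22 cytokine receptors tested, 6 were lower (27.3%) and 3 higher (13.6%), beside 13.7% and 17.7% of all autosomal genes. Their median was -0.09, and without the mouse term 3 were lower and 1 higher. The erythropoietin receptor Epor stood at 21.9, 23.6 and 26.1 against 24.5, 26.4 and 30.8 CPM, a difference of 0.18 ± 0.08 that was not called. Il1r1, the interleukin 1 receptor, rose by 0.47 ± 0.10, and the TNF receptor Tnfrsf1b fell by 0.27 ± 0.05.

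Genes that STAT5 is known to activate were called in both directions, at shares not far from those of all autosomal genes. Of 16 tested, 4 were higher (25%) and 3 lower (18.8%), beside 17.7% and 13.7% of all autosomal genes. Their median was 0.02, and -0.0088 with upper-quartile scaling, and nothing is read from these counts. Without the mouse term none was called, and without replicate 4 or 6 only 1 was lower. Cish, the classical STAT5 feedback inhibitor, was at 27.6, 38.9 and 58.4 CPM in wild-type and 25.9, 29.9 and 41.3 CPM in Jak2V617F, so the mutant libraries lay toward the low end of the wild-type range. It was called lower (-0.35 ± 0.11, adjusted p = 0.0334), and the call was lost without replicate 1, 4, 5 or 6 (adjusted p = 0.0888, 0.0866, 0.103 and 0.0934). Socs2, Socs3, Pim1 and Osm, further STAT5 targets, differed by 0.35 ± 0.20, -0.18 ± 0.09, -0.04 ± 0.05 and 0.08 ± 0.09, with none called. Those called higher were Bcl2l1, Ccnd3 (cyclin D3, 0.22 ± 0.04), Gadd45g (0.34 ± 0.09) and Id1 (0.97 ± 0.25). The motif TTCNNNGAA, which reads the same on both strands and is the form STAT5 binds, was found in the 250 bases before the start of 2 of the 10 list genes in the promoter table (20%), against 6.01% of the tested autosomal genes. It was also found in 3 of 22 replication genes (13.6%), 2 of 28 oxidative phosphorylation genes (7.14%) and 0 of 23 mitosis genes. With 10 genes, nothing is read from the share of the STAT5 list.

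Interferon-stimulated genes, which interferon receptors switch on through JAK kinases, were lower in part under vehicle. Of 52 genes 19 were called lower and 4 higher (median -0.11). The lower count was 12 without replicate 4, 10 without replicate 5, 9 without replicate 6 and 7 without the mouse term. The higher count was 1 without replicate 3, 2 without replicate 5 and 1 without the mouse term. Trim30a did not overlap between the groups, at 86.0, 101 and 109 CPM in wild-type and 73.9, 74.8 and 81.5 CPM in Jak2V617F, and fell by 0.37 ± 0.06 (adjusted p = 0.000301). The antiviral gene Ifit1 (-0.46 ± 0.10) and the nuclear body gene Sp100 (-0.24 ± 0.05) fell, whereas the ubiquitin-like modifier Isg15 rose by 0.37 ± 0.08. The interferon alpha receptor gene Ifnar1 fell by 0.22 ± 0.05, from 70.1, 81.5 and 89.5 to 63, 70.4 and 74.0 CPM. Among 20 genes of class I antigen presentation 7 were lower and 3 higher (median -0.09), but the lower count was 3, 4, 2, 1 and 1 without replicate 1, 2, 4, 5 or 6 and 0 without the mouse term. The higher count was 1 without replicate 2, 3 or 5 and without the mouse term.

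Genes of BCL2 proteins, which set the threshold for apoptosis, differed in both directions by small amounts. Bcl2l1, which encodes the survival protein Bcl-xL named in the title of the study, was at 39.8, 52.8 and 65.7 CPM in wild-type and 44.5, 59.7 and 74.5 CPM in Jak2V617F libraries. The groups overlapped widely, but the mutant library was the higher one in all 6 mice, by 0.21 ± 0.05 (adjusted p = 0.00289, and 0.21 without the mouse term). It was the only one of 5 survival genes tested (of 8 listed) to be called. Mcl1 differed by -0.09 ± 0.04 and Bcl2 by 0.00 ± 0.05. Of 10 death-promoting genes tested (of 11 listed), 5 were higher and 3 lower (median 0.14). Of the 3 lower calls 1 was left without replicate 2 or 4 and none without replicate 5 or 6, and without the mouse term there were 3 higher and 0 lower. The pore-forming effectors Bax and Bak1 rose by 0.36 ± 0.07 and 0.19 ± 0.04, with Bax at 30.2, 35.4 and 38.1 against 40.9, 44.1 and 49.9 CPM and no overlap. The BH3-only genes Pmaip1 and Bad rose by 0.48 ± 0.14 and 0.21 ± 0.06, and Bcl2l11 (Bim) was lower (-0.20 ± 0.07). The Bad call was lost without replicate 3 (adjusted p = 0.0772), and that of Bcl2l11 without replicate 3, 4, 5 or 6 (0.0908, 0.0986, 0.118 and 0.132). Of 26 p53 target genes 7 were lower (26.9%) and 3 higher (11.5%), beside 13.7% and 17.7% of all autosomal genes. Their median was -0.03, with 4 lower without replicate 5 or 6 and 1 without the mouse term. Trp53inp1, which promotes p53 activity, and the repair gene Xpc fell (-0.49 ± 0.07 and -0.28 ± 0.05), and the exonuclease gene Aen rose by 0.22 ± 0.05.

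Megakaryocyte genes rose in part. Of 25 genes tested of 27 listed, 12 were higher and 3 lower (median 0.25), with 9 and 3 without replicate 4 and 4 and 1 without the mouse term. The summed megakaryocyte markers given above, with Itga2b as the largest part, were higher in the mutant library of all 6 mice. The median difference of the list was 0.35 to 0.53 in replicates 1, 4, 5 and 6 and -0.03 in both replicates 2 and 3. The part of the summed markers in the result was not tested. Pf4, a chemokine of platelet granules, was at 43, 105 and 273 CPM in wild-type and 129, 276 and 382 CPM in Jak2V617F, with wide overlap, and rose in all 6 mice by 1.22 ± 0.21 (adjusted p = 0.00166). Thbs1 (thrombospondin 1), the platelet glycoprotein gene Gp1bb and the tetraspanin gene Cd9 rose by 1.23 ± 0.16, 0.81 ± 0.12 and 0.47 ± 0.07, and the growth factor gene Angpt1, also made by LT-HSCs, fell by 0.28 ± 0.05. Of 21 leukotriene and prostaglandin genes 7 were higher (33.3%) and 3 lower (14.3%), beside 17.7% and 13.7% of all autosomal genes. Their median was 0.16, with 1 lower without replicate 5 or 6 and 4 higher without the mouse term. Alox5, the enzyme that starts leukotriene synthesis, had the largest rise of them, from 5.27, 11.2 and 18.0 to 18.4, 27.6 and 44.8 CPM with no overlap (1.4 ± 0.15, adjusted p = 4.23e-05). The next enzyme Lta4h rose by 0.25 ± 0.05 and the prostaglandin E receptor Ptger3 by 0.35 ± 0.06.

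Granulocyte and monocyte genes had the highest median of all lists, 1.01, with a wide spread between mice. Of 24 genes 9 were called higher and none lower, 4 without replicate 4, 2 without replicate 5 and 1 without the mouse term. S100a8, a calcium-binding protein abundant in neutrophils, was at 8.03, 25.3 and 59.4 CPM in wild-type and 26.1, 68.5 and 189 CPM in Jak2V617F libraries and rose by 1.4 ± 0.35 (adjusted p = 0.012). The highest library was Jak2V617F replicate 4, and the groups overlapped. Fcgr3, Ly6c2 and Ms4a3 rose by 1.01 ± 0.28, 1.00 ± 0.25 and 1.00 ± 0.26, and without replicate 5 the calls of Fcgr3 and Ms4a3 were lost (adjusted p = 0.0547 and 0.055). Lineage depletion before the sort was directed at cells with Gr-1 and CD11b. Granulocyte and monocyte markers still summed to 276 to 1879 CPM in the vehicle libraries. The part of carried-over cells in these rises was not tested. Among 14 myeloid transcription factors 4 were higher (28.6%) and 2 lower (14.3%), beside 17.7% and 13.7% of all autosomal genes. Their median was 0.12, with 2 higher without replicate 5 and none without the mouse term. The repressor gene Gfi1 rose by 0.73 ± 0.18, while the call of Cebpa (0.49 ± 0.14) was lost without replicate 4 or 5 (adjusted p = 0.0551 and 0.0702).

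Inflammatory and immediate early genes were lower in a minority. Of 26 immediate early genes 8 were lower and 1 higher (median -0.17), among them the phosphatases Dusp1 (-0.36 ± 0.09) and Dusp2 (-0.32 ± 0.07) and the transcription factors Maff (-0.46 ± 0.10) and Fosl2 (-0.35 ± 0.09). Dusp1 was at 259.7, 525 and 646 CPM in wild-type and 191, 388 and 586 CPM in Jak2V617F, lower in the mutant library of every mouse although the groups overlapped almost fully. The lower count was 5 without replicate 5 or 6, and 0 without the mouse term. Of 23 NF-kB and inflammatory genes tested 7 were lower and 2 higher (median -0.14), with 2 lower without the mouse term. The NF-kB subunit gene Nfkb2 (-0.25 ± 0.06), its brake Tnip1 (-0.30 ± 0.05) and the adhesion gene Icam1 (-0.34 ± 0.08) fell, and Tnf rose by 0.57 ± 0.14 from 1.28, 2.16 and 3.30 to 2.13, 3.25 and 4.71 CPM. Feedback genes of the ERK pathway were lower in 4 of 14 and higher in none (median -0.12), with 2 lower without replicate 5 or 6. Dusp4 (-0.67 ± 0.12) and Spred3 (-0.30 ± 0.06) were among the 4.

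The largest decreases among genes with a mean log2 CPM of at least 1 included several outside the lists. Slc15a2, a peptide transporter, was at 18.4, 39.3 and 46.7 CPM in wild-type and 0.265, 3.96 and 8.80 CPM in Jak2V617F libraries, and fell by 3.27 ± 0.56 (adjusted p = 0.00162). Ctse, the aspartic protease cathepsin E, was at 98.8, 211 and 238 against 20.6, 31.2 and 47.9 CPM and fell by 2.64 ± 0.33 (adjusted p = 0.000268). Neither gene overlapped between the groups. Ctse lies within 20 Mb of Ptprc, the congenic marker, so for it the mutation and the donor strain cannot be told apart. Eya4, a transcriptional cofactor, fell (-2.93 ± 0.47) from 2.29, 4.02 and 39.6 to 0.0656, 0.764 and 3.33 CPM, and its highest wild-type library, replicate 6, stood far above the other 5. Cyp26b1, which degrades retinoic acid (-2.27 ± 0.33), the progesterone receptor gene Pgr (-1.68 ± 0.32) and the YAP-related cofactor gene Wwtr1 (-1.37 ± 0.36) fell too. The call of Wwtr1 was lost without the mouse term (adjusted p = 0.0588). Among the largest increases besides those named above were Mrvi1 (1.47 ± 0.35) and the potassium channel gene Kcnj5 (1.38 ± 0.33), with wild-type libraries of 3.87, 12 and 63.1 CPM, and Cst7, the cystatin F gene (1.13 ± 0.19). Without the mouse term Mrvi1 and Kcnj5 were not called (adjusted p = 0.0611 and 0.209).

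The donors differ around the congenic marker Ptprc (CD45) on chromosome 1 and around Jak2 on chromosome 19, where stretches of donor strain can remain. Within 20 Mb of Ptprc 70 of 186 genes were called (37.6%), and within 10 Mb of Jak2 31 of 97 (32%), beside 31.3% of all other autosomal genes. The annotated gene AC162449.1, near Ptprc, had 304 counts in the wild-type libraries together and 0 in the Jak2V617F libraries, which makes it at least 91.9-fold lower with a floor of 3 counts over the group. Ptprv, a phosphatase gene near Ptprc, fell from 1.85, 2.05 and 3.12 to 0.350, 0.695 and 0.994 CPM with no overlap (-1.70 ± 0.20). Ptprc fell by 0.24 ± 0.06. Cxcr4 and the mitotic kinesin gene Kif14 (0.65 ± 0.06) lie in the same stretch, and Sgms1 (-0.39 ± 0.05), Cd274 (-0.37 ± 0.05), which encodes the checkpoint ligand PD-L1, and the kinesin gene Kif20b (0.49 ± 0.05) lie near Jak2. For these genes the mutation and the donor strain cannot be told apart. Only up to 4 called genes of each stretch were picked by position. The same limit holds for genes of these stretches named in other paragraphs, also where they recurred under pegIFN. Nnt, which is partly deleted in C57BL/6J but not in C57BL/6N mice, was present in both groups and rose by 0.44 ± 0.07.

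The same contrast in the 6 pegIFN mice called 3749 autosomal genes (24.6%). Of the 2689 genes higher under vehicle, 2381 (88.5%) had a positive difference under pegIFN and 1195 were called higher there. Of the 2088 lower genes, 1747 (83.7%) had a negative difference and 831 were called lower. Together 2026 genes were called the same way in both, which is 42.4% of the vehicle calls and 54% of the pegIFN calls, and 40 were called opposite ways. Kit recurred at -0.61 ± 0.06, Foxo3 at -0.41 ± 0.05, Bax at 0.39 ± 0.07 and Bcl2l1 at 0.26 ± 0.05, all called. Ctse (-3.14 ± 0.33) and Ptprv (-1.69 ± 0.19) were called again too, but both lie near Ptprc, where donor strain and mutation cannot be told apart. The oxidative phosphorylation list kept the same side, with 34 of 40 genes called higher under pegIFN (13.2% of all genes), and the granulocyte and monocyte list had 20 of 24 higher. The stem cell identity list had 4 of 30 lower and 3 higher (11.4% of all genes were lower).

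The difference of the genotype effect between treatments was tested in the same fit and called for 514 autosomal genes (3.38%), 319 of them (2.1%) with a more negative effect under pegIFN. In the mitosis list 19 of 28 genes had a smaller effect under pegIFN by this test, and 9 of 28 were called higher there, with a median of 0.16. The plot of the mitosis genes in both treatments shows the shift for each of them. Ube2c rose by 0.34 ± 0.07 under pegIFN, a difference of effects of -0.63 ± 0.11 (adjusted p = 0.00849), and for Mki67 the value under pegIFN was -0.03 ± 0.07 (difference -0.44 ± 0.09, adjusted p = 0.0204). Cxcr4, Meis1 and Pdzk1ip1 were lower under vehicle and were at -0.11 ± 0.06, 0.15 ± 0.04 and 0.01 ± 0.05 under pegIFN (adjusted p of the difference 0.00849, 0.00355 and 0.00463). Among p53 targets 8 of 26 had a higher effect under pegIFN (1.28% of all genes), and Cdkn1a rose there by 1.18 ± 0.08 after 0.02 ± 0.08 under vehicle (adjusted p of the difference 8.8e-05). Without the mouse term no difference of effects was called, with 1285 genes at an unadjusted p under 0.05.

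**Figure D5:**
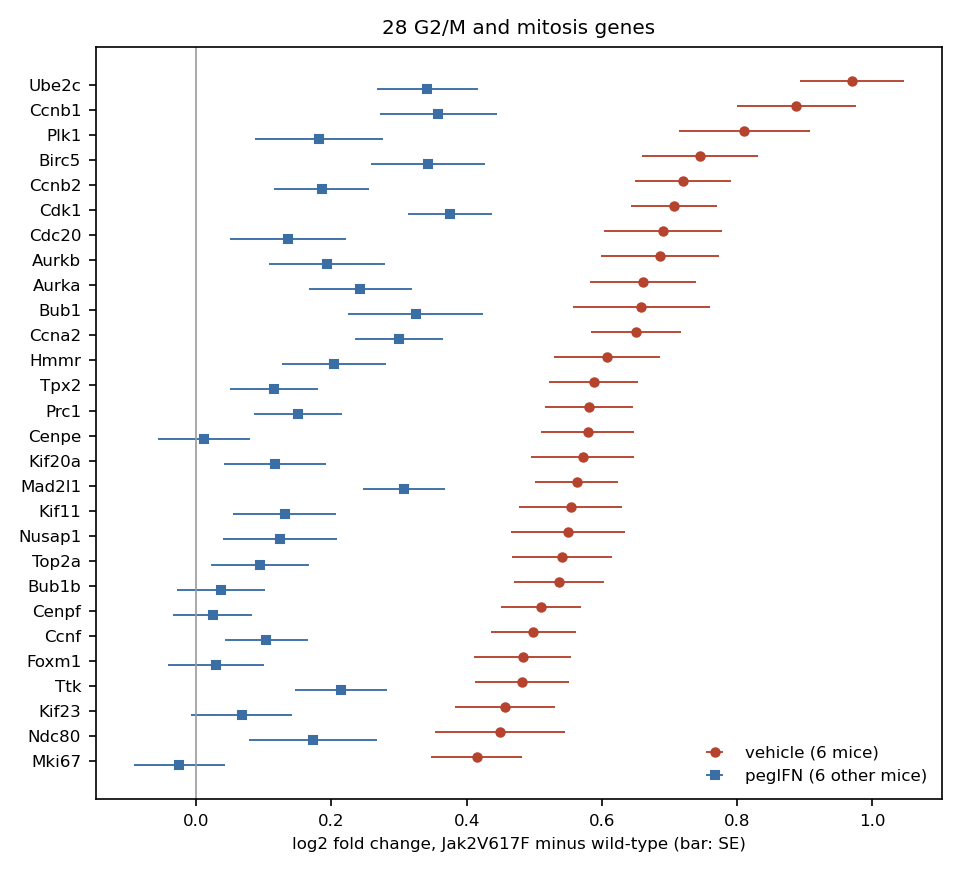
Log2 fold change (Jak2V617F minus wild-type) of 28 mitosis genes with its standard error, circles for the 6 vehicle mice and squares for the 6 pegIFN mice. Every circle lies between 0.41 and 0.97, and each square lies to the left of the circle of the same gene.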

How the data were processed

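RNA was sequenced as 75 bp single-end reads, per the labels' protocols. The submitters' processing notes name the build GRCm38 and the tools RSEM 1.2.30, STAR 2.5.2a and cutadapt 1.11. The annotation release is not given in the sources used here. The deposited table holds the authors' RSEM expected counts for 38215 genes, of which 16.8% of values were not whole, and these were rounded here. R 4.3.3 with edgeR 4.0.16 was used. Genes with low counts were removed (filterByExpr, minimum count 10), libraries were scaled by TMM, and all 24 libraries were fitted together with a term for each of the 12 mice and the genotype effect under each treatment (robust quasi-likelihood F test, 10 residual degrees of freedom, Benjamini-Hochberg adjustment over 15879 genes). Levels are CPM computed from the rounded counts. The mouse number pairs the libraries because both genotypes were sorted from the same recipient. Within pairs the deviations from the group means correlated at 0.228 to 0.415, each library best with its own partner.

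Genes were named from up to 4 called members of smallest p in each of 39 lists, the 12 largest called changes in each direction with a mean log2 CPM of at least 1 and the same sign in all 6 pairs, up to 4 called genes of smallest p within 20 Mb of Ptprc and 10 Mb of Jak2, and a set of fixed genes. Some genes that meet this rule are not reported here. The members and lists were chosen with earlier results of these data known. Promoters were matched by symbol. The fit was checked on simulated counts. Alternatives were fits without the mouse term or on vehicle libraries alone, DESeq2 1.42.0, limma-voom 3.58.1, other scalings and filters, a fold threshold, and leaving out each replicate.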

Additional observations from a re-analysis of the deposited data

Results flagged for a closer look

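In 20 of 304 groups of 6 vehicle libraries, 1 library lay far from the other 5 by Dixon's test, which chance gives in about 1 group in 20. Jak2V617F replicate 4 was low for Cdk1 (78.0 CPM against 107 to 121), Ldha (618 against 780.0 to 857) and U2af1 (80.9 against 99.3 to 104.0), and high for Sox4 (348 against 206 to 230.1), Hlf (432 against 194 to 269) and Trp53inp1 (49.0 against 23.7 to 32.9). Wild-type replicate 4 was high for Cbl (112 against 92.7 to 97.8 CPM) and for the sum of erythroid markers (649.7 against 144 to 299 CPM). Wild-type replicate 3 was high for Cd48 (12.8 against 4.73 to 7.72 CPM), Cd9 (205 against 101 to 138), Cst7 (11.4 against 3.19 to 5.37), Kcnj5 (63.1 against 3.87 to 15.8) and the sum of T and NK cell markers (75.8 against 33.4 to 45.9). That sum was nearly all Nkg7, at up to 75.5 CPM in wild-type. The T cell markers Cd3e, Cd3d and Cd8a had wild-type means of 0.046, 0.058 and 0.064 CPM. Wild-type replicate 6 was high for Eya4 (39.6 against 2.29 to 8.52 CPM), low for Thbs1 (4.21 against 9.07 to 11.8) and high in the share of reads from the 10 largest genes (5.16% against 4.16 to 4.53%). Single libraries were also high for Bmpr1a (7.56 CPM, wild-type replicate 2), Procr (59.8 CPM, wild-type replicate 1), Cyp26b1 (14.3 CPM, Jak2V617F replicate 2) and Pmaip1 (5.81 CPM, Jak2V617F replicate 3).

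For 30 of the genes named here the genotype effect differed between the treatments by the interaction test (adjusted p under 0.05). The effect was more negative under pegIFN for the cell cycle and repair genes Ube2c (-0.63), H2afx (-0.63), Ccnb2 (-0.53), Mki67 (-0.44), Kif20b (-0.41), Fancd2 (-0.36), Ccna2 (-0.35) and Fen1 (-0.34). The same held for the nucleolar genes Nhp2 (-0.32), Bop1 (-0.28) and Nolc1 (-0.25) and for Isg15 (-0.39). It was more positive for the stem cell and niche genes Alcam (0.75), Cxcr4 (0.50), Pdzk1ip1 (0.47), Meis1 (0.43) and Angpt1 (0.36), and for the stress genes Cdkn1a (1.16), Trp53inp1 (0.80) and Ddit4 (0.51). Signalling and survival genes with a more positive effect were Socs3 (0.75), Spred3 (0.40), Tnfrsf1b (0.32), Cd274 (0.32), Sgms1 (0.40) and Mcl1 (0.23). For genes of sterol, autophagy, erythroid and iron metabolism the effect was more positive for Insig1 (0.31), Gabarapl1 (0.31) and Car2 (0.25) and more negative for Slc11a2 (-0.62).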

How the results depend on the processing

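Without the term for the mouse (the replicate block) 1954 autosomal genes were called under vehicle, 1312 higher and 642 lower, and on the 12 vehicle libraries alone without the pairing 1114, 702 and 412. Without the replicate block 1295 genes were called under pegIFN and 0 for the difference between treatments (1285 at an unadjusted p under 0.05). Of 175 named genes that were called, 69 lost the call without the block and 106 kept it. Tested against a fold change of 1.2, 376 genes were called, 253 higher and 123 lower. Leaving out each replicate in turn gave 3277 to 4407 genes, 2031 to 2525 higher and 1246 to 1968 lower, with the lower count at 1246 without replicate 5 and 1290 without replicate 6. Scaling, filters and the other tools kept the total within 1.5 times of the 4777 called. No named gene that was called changed direction under any alternative run. Of the named genes not called, Bcl2 (-0.05337 to 0.04055 with 1 replicate left out) changed sign with RLE scaling or DESeq2 (-0.01094 in both), upper-quartile scaling (-0.02987), a filter of 1 CPM (-0.01795) and without replicate 1 or 6 (-0.02869 without 6). Cdkn1a (-0.02589 to 0.07469) did so with upper-quartile scaling (-0.006515) and without replicate 3 or 6 (-0.006207 without 6). The mean difference in the percent of mitochondrial reads was -0.00698 to 0.3211 when 1 replicate was left out, and that in the percent taken by the 10 largest genes -0.1232 to 0.0853.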

Other observations

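Genes of cholesterol synthesis and uptake were lower in a minority. Of 29 genes, 7 were lower and 1 higher in Jak2V617F cells under vehicle (median -0.03), with 4 lower without replicate 4 or 5 and 2 without the mouse term. The sterol sensor partner Insig1 (-0.39 ± 0.05) and lanosterol synthase (Lss, -0.31 ± 0.06) were among them. Of 25 lysosome and autophagy genes tested 7 were lower and 1 higher (median -0.08). The autophagy kinase gene Ulk1 (-0.47 ± 0.06) and the autophagosome gene Gabarapl1 (-0.30 ± 0.04) fell, and so did the lysosomal glucosidase gene Gaa (-0.27 ± 0.05). Iron and haem genes were higher in 6 (28.6%) and lower in 2 (9.52%) of 21, beside 17.7% and 13.7% of all autosomal genes. Their median was 0.04, and without the mouse term 1 was higher and 0 lower. The transferrin receptor gene Tfrc (0.43 ± 0.11) and the iron transporter gene Slc11a2 (0.29 ± 0.07) rose.

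Few erythroid genes were called, and no direction of the lineage is read from them. Of 21 early erythroid genes 2 were higher (9.52%) and 5 lower (23.8%), beside 17.7% and 13.7% of all autosomal genes. Their median was -0.12, with 3 lower without replicate 4 and 2 without replicate 6 or without the mouse term. Carbonic anhydrase 2 (Car2, -0.35 ± 0.05) fell. Of 15 globin and late erythroid genes 3 were lower (20%) and none higher (median -0.20). Without replicate 4, without replicate 5 or without the mouse term 1 was lower, against 5 without replicate 6. Wild-type replicate 4 had the highest sum of erythroid markers. Among lists of cells outside the gate, counts were near or below the shares of all autosomal genes called higher (17.7%) and lower (13.7%), and nothing is read from them. Early lymphoid genes had 2 lower of 14 tested (median 0.16), with Cd27 (-0.36 ± 0.06) and Sox4 (-0.44 ± 0.08). B cell genes had 1 higher of 7, T and NK cell genes 1 higher and 1 lower of 6, mast cell genes 1 and 1 of 7, and endothelial genes 1 lower of 7.

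Among 23 genes mutated in myeloproliferative neoplasms, 7 were higher and 7 lower (median -0.02), with 4 and 4 without the mouse term. The endoplasmic reticulum chaperone Calr rose by 0.25 ± 0.04, the histone methyltransferase gene Ezh2 by 0.31 ± 0.05 and the splicing factor gene U2af1 by 0.26 ± 0.05. Of 7 genes known to differ between C57BL/6 substrains 1 was higher (14.3%) and 2 lower (28.6%), beside 17.7% and 13.7% of all autosomal genes. By annotated class, 12.3% of 633 lincRNA genes were called (18 higher, 60 lower) and 15.6% of 831 pseudogenes (119 higher, 11 lower), both below the 31.4% of all autosomal genes, beside 34.4% of protein-coding genes. The classes were not matched for read count, on which a call depends. Reads that fit both a pseudogene and a related gene are divided by RSEM, and the part of this in the pseudogene counts was not tested.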
